A study of Mus musculus with 2 samples.

Results

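The genes described here encode the co-receptors, adaptors and Irak kinases that act with Tlr4, the receptor of macrophages for bacterial lipopolysaccharide. The rule that sets them lists gene symbols and refers to no measured value, and it gives 10 genes of 55536 gene entries: Cd14, Ly96, Myd88, Tirap, Ticam1, Ticam2, Irak1, Irak2, Irak3 and Irak4. Polyadenylated RNA was sequenced from mouse bone marrow-derived macrophages, phagocytes that were differentiated in culture from the marrow of C57BL/6J mice. Cells had received Lipid A, the part of lipopolysaccharide that Tlr4 recognises, at 100 ng/mL for 12 h, were then washed and left for 12 h, and received 100 ng/mL again for 30 min before RNA was taken. A description attached to both libraries names Lipid A, whereas their treatment field names lipoprotein A, a conflict that is left as it stands. Both libraries, replicate 1 and replicate 2, belong to this single group, and neither an untreated nor a singly treated library was analysed here. Age and sex were not collected, the developmental stage is given as unknown, and the replicates share a donor record without a statement that they came from separate animals. Differences between them may therefore be technical, and no value below describes a response to treatment.

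In outline, the surface protein Cd14 passes lipopolysaccharide to Ly96 (MD-2), which binds it as a complex with Tlr4. At the cell surface Tirap recruits Myd88, which gathers Irak4, Irak1 and Irak2 into a complex that leads to NF-kB and MAP kinase activation. Inside the cell Ticam2 (TRAM) links the receptor to Ticam1 (TRIF), which leads to interferon regulatory factors, while Irak3 (IRAK-M) restrains the Irak complex and is known for its part in endotoxin tolerance, the blunted response of macrophages to a repeated dose.

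Replicate 1 held 41938419 counts over all genes and replicate 2 held 30780681. All 8 macrophage markers were at 1 TPM or more (a level scaled by transcript length and library depth) in both libraries. Their TPM summed to 16558 and 18322 in replicates 1 and 2. Of 7 neutrophil markers 2 reached that level, with sums of 75.1 and 9.88 TPM, and all 5 stromal markers did, with 553 and 629 TPM. Markers of dendritic cells summed to 3.34 and 3.22 TPM, and those of T cells to 58.3 and 37.7 TPM, nearly all of it from Cd4, with Cd3e at 3 and 0 counts and Cd3d at 2 and 0 counts. The B cell, NK cell and erythroid lists each summed to under 1 TPM, and Hbb-bs had 0 counts in both. In bulk RNA, fewer cells of a type and less RNA per cell cannot be told apart.

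All 10 genes were detected, that is, at 1 TPM or more in both libraries, as were 48.7% of protein-coding genes. Cd14 and Myd88 led in both libraries, and Tirap was the lowest in both. The 10 genes had a median level of 36.1 TPM in replicate 1 and of 33.5 TPM in replicate 2, and the corresponding medians of all 12471 genes with at least 20 counts in each library were 13.5 and 13.0 TPM. By mean level the order was Cd14, Myd88, Ly96, Irak2, Irak3, Ticam2, Irak1, Ticam1, Irak4 and Tirap. Neighbours were called separate where the lower library of the higher gene lay above the higher library of the next gene. On that rule Cd14 was separate from Myd88, Myd88 from Ly96, Irak2 from Irak3, Irak3 from Ticam2, and Irak4 from Tirap, in both of the deposited quantifications. The order of Irak2 and Irak3 is the least certain of these. In replicate 1 their deposited TPM intervals, 36.5 to 44.3 and 36.0 to 38.8, overlapped. The level of Irak2 also includes 6.79 and 12.5 TPM of a transcript with a retained intron, Irak2-207, from only 58 and 77 counts. Ly96 and Irak2 exchanged places between the libraries, and so did Ticam2 and Irak1. The levels of Ticam2, Irak1, Ticam1 and Irak4 followed each other with no separation between neighbours.

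**Figure D1:**
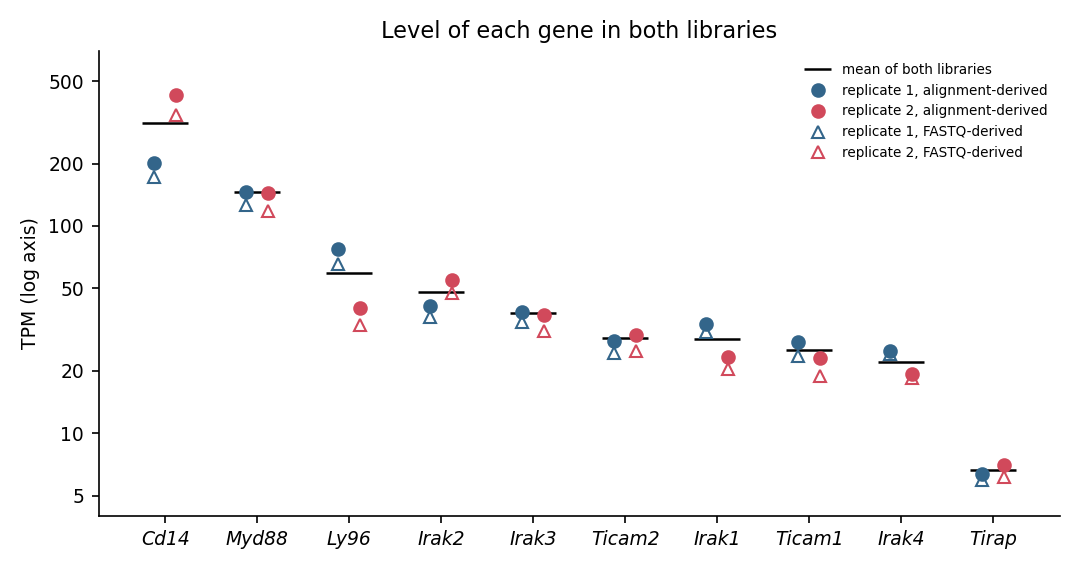
Level of each of the 10 genes in TPM on a log axis, with circles for the alignment-derived and triangles for the FASTQ-derived quantification of replicate 1 (blue) and replicate 2 (red), and a bar for the mean of the alignment-derived values (n = 2). Cd14 at 202 and 428 TPM and Ly96 at 77.8 and 40.2 TPM show the widest gaps between the libraries, in opposite directions.

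Cd14 (ENSMUSG00000051439.7, chromosome 18, 36725067 to 36726798, minus strand, mm10) is the co-receptor that captures lipopolysaccharide at the cell surface. It stood at 202 TPM from 7230 counts in replicate 1 and at 428 TPM from 11079 counts in replicate 2. Replicate 2 was thus the higher library although it was the less deeply sequenced. The mean was 315 ± 160 TPM (SD, n = 2), above 95.9% of detected protein-coding genes. On scaled counts the log2 ratio of replicate 2 over replicate 1 was 1.07, with an exact binomial 95% interval of 1.03 to 1.11 that covers counting error only. The FASTQ-derived quantification gave 173 and 343 TPM and a ratio of 1.02. Of all genes tested, 2.00% had a larger ratio in either direction.

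Ly96 (ENSMUSG00000025779.10, chromosome 1, 16688051 to 16709611, plus strand), the lipid-binding partner of Tlr4, lay the other way. It had 77.8 TPM from 787 counts in replicate 1 and 40.2 TPM from 297 counts in replicate 2. The log2 ratio was -0.95, with an interval of -1.15 to -0.76 that spans a 2-fold difference, and the mean was 59.0 ± 26.6 TPM (SD, n = 2). FASTQ-derived values were 65.6 and 33.4 TPM, with a ratio of -0.92. Tlr4 itself had 48.5 and 34.6 TPM in replicates 1 and 2 and a ratio of -0.45. Cd14 therefore stood at 2.60 times the TPM of Ly96 in replicate 1 and at 10.6 times in replicate 2, and at 4.18 and 12.4 times that of Tlr4. Ly96 was closer to Tlr4, at 1.61 and 1.16 times its TPM. The neutrophil marker sum also differed between the libraries, at 75.1 TPM in replicate 1 and 9.88 TPM in replicate 2, and its part in the values of Cd14 and Ly96 was not tested.

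Of the 10 genes, 1 was at least 2-fold higher in replicate 2, which was Cd14, under a rule passed by 1.94% of all genes with 20 or more counts in each library, and 0 of the 10 were at least 2-fold lower, a rule passed by 0.521%. The ratio was above 0 for 5 of the 10 genes and below 0 for the other 5, with a median of 0.01, beside a median of -0.02 over all genes tested. The median size of the log2 ratio was 0.20 for the 10 genes and 0.20 for all genes tested. The central 95% of all genes ran from -0.63 to 0.90. Cd14 and Ly96 lay outside this range, and the other 8 genes lay between -0.39 and 0.30.

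**Figure D2:**
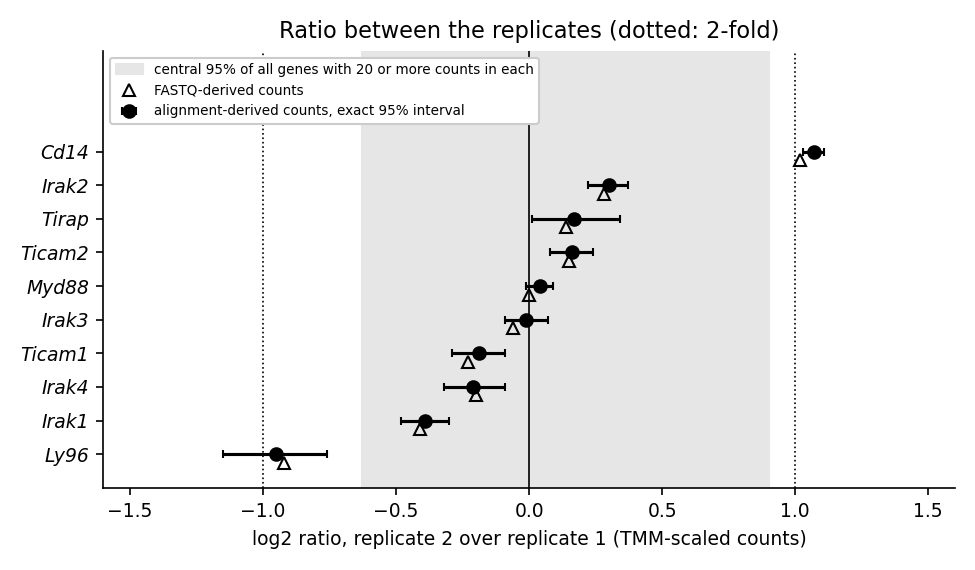
Log2 ratio of replicate 2 over replicate 1 for each gene, with exact 95% intervals for counting error (circles with bars) and the FASTQ-derived ratio (triangles); the grey band holds the central 95% of all genes with 20 or more counts in each library. Cd14 at 1.07 and Ly96 at -0.95 fall outside the band of -0.63 to 0.90, and the other 8 genes fall inside it.

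Among the adaptors, Myd88 (ENSMUSG00000032508.8, chromosome 9, 119335934 to 119341411, minus strand) was by far the most abundant. It stood at 145 TPM from 6885 counts in replicate 1 and at 144 TPM from 5161 counts in replicate 2, a mean of 145 ± 0.764 TPM (SD, n = 2). Its log2 ratio was 0.04, with an interval of -0.01 to 0.09. Tirap (chromosome 9, 35184551 to 35200291, minus strand), the adaptor that brings Myd88 to the membrane, had 6.35 TPM from 670 counts and 7.00 TPM from 551 counts, a mean of 6.67 ± 0.460 TPM. Myd88 was thus at 22.9 times the level of Tirap in replicate 1 and at 20.6 times in replicate 2, and both quotients were near those of the FASTQ-derived table, 21.2 and 19.1. Part of the exonic sequence of Myd88, 290 of 2576 bases, overlaps Acaa1a on the opposite strand, and Acaa1a had 63.4 and 75.2 TPM. Of the 31-base words of Tirap, 3.69% occur in transcripts of other genes in the same orientation and 12% in the opposite one. Tirap overlaps Gm39318 over 446 of 4929 exonic bases and Srpr over 39, both on the opposite strand. Gm39318 had 0 TPM in both libraries, and Srpr had 97.56 and 98.95 TPM. No label or header says whether the strand of a read was used in counting, and reads from such stretches cannot be told apart without it.

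The adaptors of the interferon branch lay close together. Ticam1 (chromosome 17, 56269319 to 56276786, minus strand) had 27.4 TPM from 2086 counts in replicate 1 and 23.1 TPM from 1333 counts in replicate 2, a mean of 25.2 ± 3.03 TPM (SD, n = 2) and a log2 ratio of -0.19 (interval -0.29 to -0.09). Ticam2 had 27.9 TPM from 3052 counts and 29.9 TPM from 2493 counts, a mean of 28.9 ± 1.44 TPM and a ratio of 0.16 (interval 0.08 to 0.24). Both libraries of Ticam2 lay above both of Ticam1, by little where they came closest, and in the FASTQ-derived table too, with 24.3 and 24.9 TPM for Ticam2 and 23.7 and 18.8 TPM for Ticam1. The level of Ticam1 was 0.982 times that of Ticam2 in replicate 1 and 0.772 times in replicate 2. Ticam2 shares 838 of its 5792 exonic bases with Tmed7, a trafficking gene on the same strand at 77.0 and 76.2 TPM, and 15.7% of its 31-base words occur in transcripts of other genes in the same orientation. Its level, and its order against Ticam1, are therefore uncertain. Myd88 was at 5.31 and 6.24 times the level of Ticam1. Summed, the 4 adaptors came to 207 TPM in replicate 1 and 204 TPM in replicate 2.

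The kinase Irak4 (ENSMUSG00000059883.16, chromosome 15, 94543643 to 94581815, plus strand), which is the first to join Myd88, was the least abundant Irak gene. It had 24.8 TPM from 1549 counts in replicate 1 and 19.3 TPM from 981 counts in replicate 2, with a mean of 22.0 ± 3.90 TPM (SD, n = 2) and a log2 ratio of -0.21 (interval -0.32 to -0.09). Most of its RNA was assigned to the coding transcript Irak4-201, 77.7% and 85.2% of the gene's TPM in replicates 1 and 2. A transcript with a retained intron, Irak4-203, which has 262 bases found in no other annotated transcript of the gene, held 20.4% and 11.0%, or 5.07 and 2.12 TPM. FASTQ-derived shares of Irak4-203 were 22.7% and 15.1%, so replicate 2 was the lower library in both quantifications. As a share of counts, not scaled by transcript length, Irak4-203 held 8.14% and 4.01%. The deposited intervals of its TPM, 2.42 to 7.21 in replicate 1 and 0.674 to 3.96 in replicate 2, overlapped. Irak4 shares 395 of 5021 exonic bases with Twf1 on the opposite strand, which had 85.4 and 71.5 TPM.

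Irak1 (ENSMUSG00000031392.18, chromosome X, 74013914 to 74023918, minus strand) is the kinase that Irak4 activates. It had 33.7 TPM from 2800 counts in replicate 1 and 23.4 TPM from 1559 counts in replicate 2, a mean of 28.5 ± 7.30 TPM (SD, n = 2) and a log2 ratio of -0.39 (interval -0.48 to -0.30). Replicate 1 was the higher library, and 20.9% of all genes tested had a larger ratio in either direction. Of its 22 annotated transcripts, 2 reached 5% of the gene's TPM in the alignment-derived table. Irak1-206 held 49.6% and 55.8%, and Irak1-204 held 26.4% and 23.4%. These transcripts use acceptor sites 3 bases apart at exon 5 and so encode 711 and 710 codons. The last 15 bases of exon 4 (lower case) and the first 15 of exon 5 (capitals) are shown to make this difference visible.
Irak1-206: ccttcctccaccaagCAGTCAAGCCCAGAG
Irak1-204: ccttcctccaccaagTCAAGCCCAGAGAGC
The sites begin exon 5 at base 74022664 in Irak1-206 and at 74022661 in Irak1-204. Irak1-206 led in both libraries and both quantifications, with FASTQ-derived shares of 42.8% and 46.0%. In the FASTQ-derived table the coding transcript Irak1-201 also passed 5% in both libraries, with 11.2% and 13.5%, where the alignment-derived table gave 3.95% and 4.75%, and the retained-intron transcript Irak1-222 passed it in replicate 2 alone, with 4.15% and 5.82%. Irak1-206 has 7 bases of its own and no splice junction that other annotated transcripts of Irak1 lack, so the split between these transcripts rests on few distinguishing bases.

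Irak2 (ENSMUSG00000060477.14, chromosome 6, 113638467 to 113695026, plus strand), the Irak protein that sustains signalling after Irak1, was higher in replicate 2. It had 41.0 TPM from 2797 counts in replicate 1 and 55.0 TPM from 2506 counts in replicate 2, a mean of 48.0 ± 9.87 TPM (SD, n = 2) and a log2 ratio of 0.30 (interval 0.22 to 0.37). With Irak1 lying the other way, Irak2 was at 1.22 times the level of Irak1 in replicate 1 and at 2.35 times in replicate 2. These quotients include the TPM of the retained-intron transcript Irak2-207, which rests on few counts. The full-length transcript Irak2-201 had nearly the same level in both, 30.2 and 29.1 TPM, and its share was 73.5% and 52.8%. The transcripts Irak2-202 and Irak2-207, the others at 5% or more of the gene's TPM in the alignment-derived table, had larger shares in replicate 2. Irak2-202 skips exon 3, an exon of 144 bases (113665703 to 113665846), and encodes 574 codons in place of 622. The junctions below show exon 2 in lower case and the exon joined to it in capitals, and the lower one exists in Irak2-202 alone.
Irak2-201: agattgtcttgagctGGAAGCCGGTTCCTG
Irak2-202: agattgtcttgagctGGCCCATCATGGCTG
Irak2-202 had 3.37 TPM in replicate 1 (deposited interval 1.56 to 5.44) and 9.97 TPM in replicate 2 (6.15 to 12.6), or 8.21% and 18.1% of the gene. FASTQ-derived shares of 3.16% and 6.79% kept the order of the libraries at a smaller size. The retained-intron transcript Irak2-207 held 16.5% and 22.7%, or 6.79 and 12.5 TPM, from 58 and 77 counts, and its deposited intervals of 2.63 to 10.6 and 7.14 to 17.6 overlapped. As a share of counts, which is not scaled by transcript length, Irak2-207 held 2.07% and 3.06%. Its FASTQ-derived shares were 14.1% and 16.3%, and in that table the noncoding transcripts Irak2-206, at 1.31% and 6.86%, Irak2-204, at 0.724% and 4.04%, and Irak2-208, at 0 and 2.68%, differed by more points, from at most 84 counts. All noncoding transcripts of Irak2 together held 18.1% and 29.0%, and 19.1% and 33.3% in the FASTQ-derived table. Of the 31-base words of Irak2, 8.01% also occur in transcripts of other genes in the same orientation, most of them in the gene Gm7229.

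The inhibitory member Irak3 (ENSMUSG00000020227.10, chromosome 10, 120141648 to 120202130, minus strand) was level between the libraries as a gene and uneven in its transcripts. It had 38.5 TPM from 2952 counts in replicate 1 and 37.2 TPM from 2138 counts in replicate 2, a mean of 37.9 ± 0.912 TPM (SD, n = 2). Its log2 ratio was -0.01 (interval -0.09 to 0.07), and 96.7% of all genes tested had a larger one in either direction. Irak3 was at 1.14 and 1.59 times the level of Irak1. Its RNA was divided between Irak3-201 and Irak3-205, coding transcripts with different first exons that join the same exon 2. The junctions below show exon 1 in lower case and exon 2 in capitals.
Irak3-201: gctggcggggcctggCGGAGCGACTTTCAA
Irak3-205: agtttgtttgcccagCGGAGCGACTTTCAA
The first exon of Irak3-201 (120201327 to 120201659) holds 133 coding bases among its 333. That of Irak3-205 (120202009 to 120202130) is 122 bases long and holds 0 coding bases, and its transcript encodes 517 codons in place of 609, in the same frame with 92 fewer at the amino end, the end that carries the death domain in Irak proteins.

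Irak3-201 had 25.0 TPM in replicate 1 (deposited interval 20.6 to 26.7) and 18.2 TPM in replicate 2 (14.6 to 20.4), and Irak3-205 had 13.1 TPM (9.74 to 16.0) and 18.8 TPM (14.9 to 21.1). In shares, Irak3-205 held 34.0% and 50.4%, so that it was the minor transcript in replicate 1 and the slightly larger one in replicate 2. The FASTQ-derived table gave TPM shares of 18.9% and 26.5% for Irak3-205, again higher in replicate 2, with Irak3-201 the larger at 79.2% and 70.5%. No leading transcript was therefore called for Irak3. Every one of the 122 bases of the first exon of Irak3-205 overlaps exons of Tmbim4, a gene on the opposite strand that starts at 120201590 and had 155 and 162 TPM. The first exon of Irak3-201 overlaps them over 70 bases. Without a stated use of strand, reads of Tmbim4 and of the first exon of Irak3-205 cannot be told apart, apart from those that cross the junction shown above, and the part of Tmbim4 in the shares was not tested.

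**Figure D3:**
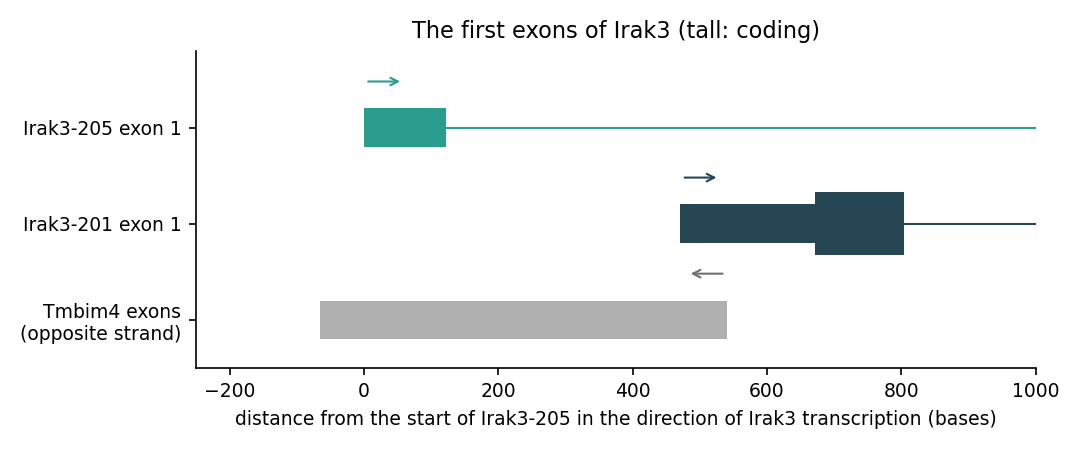
First exons of Irak3-205 and Irak3-201 and all annotated exons of Tmbim4 in the same stretch, drawn to scale in bases from the start of Irak3-205 in the direction of Irak3 transcription; tall boxes are coding, lines are introns and arrows give the direction of transcription. The starts lie 471 bases apart, and the first exon of Irak3-205 lies wholly within Tmbim4 exons.

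The bases before both RefSeq starts of Irak3 differ in composition. RefSeq (GRCm38.p6) gives Irak3 starts at 120201597, within the first exon of Irak3-201, and at 120202130, the start of Irak3-205. The 250 bases before each, 5′ to 3′ on the minus strand, are printed with CpG dinucleotides in capitals because they differ in number.
chr10:120201598-120201847: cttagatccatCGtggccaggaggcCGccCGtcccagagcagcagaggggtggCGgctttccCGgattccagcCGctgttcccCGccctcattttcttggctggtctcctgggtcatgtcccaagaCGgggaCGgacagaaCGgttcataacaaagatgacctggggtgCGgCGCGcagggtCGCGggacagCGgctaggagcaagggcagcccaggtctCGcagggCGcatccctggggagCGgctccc
chr10:120202131-120202380: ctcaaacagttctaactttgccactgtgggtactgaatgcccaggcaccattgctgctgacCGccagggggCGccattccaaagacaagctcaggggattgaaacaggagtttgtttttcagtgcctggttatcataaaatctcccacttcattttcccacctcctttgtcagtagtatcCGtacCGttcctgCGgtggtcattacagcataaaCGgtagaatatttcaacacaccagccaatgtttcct
The first window, before the start near Irak3-201, is 66.4% G or C and holds 19 CpG, a number reached by 19.7% of 32851 RefSeq windows of the same length. The second, before Irak3-205, is 47.6% G or C and holds 6 CpG, the median of all windows, 50.4% of which hold as many or more. In GENCODE Irak3-201 starts at 120201659, so the end of the first window lies within its first exon. The first window also lies wholly within Tmbim4 exons, and the second in part. Neither window is therefore upstream sequence of Irak3 alone. Both strands were searched for 6 patterns. The NF-kB pattern GGANTTTCC (in 1.07% of all windows), the AP-1 pattern TGANTCA (6.75%), the C/EBP pattern TTGCNNAA (9.56%), the Ets pattern GAGGAA (23.3%) and the TATA box TATAAA (12.4%) had no match in either window. The pattern GAAANNGAA, part of interferon-stimulated elements, matched at 94 to 102 bases before the start of Irak3-205, on the strand opposite to the gene, and 7.13% of all windows hold it. A match describes letters and not a binding site.

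The remaining genes had 1 main coding transcript. Ly96-201 held 97.2% and 98.7% of the TPM of Ly96 in replicates 1 and 2, Myd88-201 held 99.4% and 99.1% of that of Myd88, and Ticam2-201 held 98.9% and 99.5% of that of Ticam2, while Ticam1 has a single annotated transcript. Tirap divided among 3 transcripts that all encode 249 codons and differ outside the coding sequence: Tirap-201 at 78.7% and 74.1%, Tirap-203 at 13.5% and 17.6%, and Tirap-205 at 5.67% and 5.43%. For Cd14, the spliced transcript Cd14-201 held 87.6% and 81.7%. Cd14-202, which spans the single intron of 91 bases, held 12.4% and 18.3%, with 25.1 TPM in replicate 1 (deposited interval 21.4 to 27.0) and 78.2 TPM in replicate 2 (69.3 to 80.3). The FASTQ-derived shares of Cd14-202 were nearly the same, 12.3% and 18.1%, and its shares of counts were 5.80% and 8.74%. Both Cd14 transcripts were higher in replicate 2, and the one with the intron had the larger share there.

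**Figure D4:**
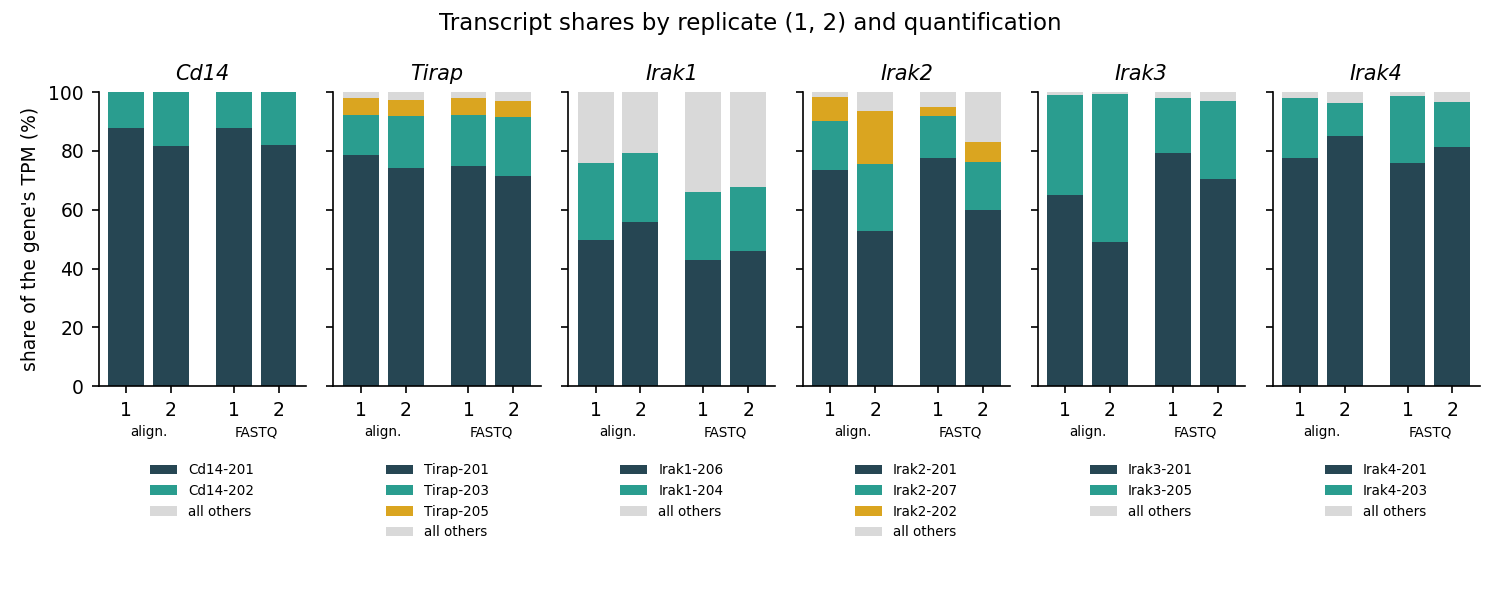
Share of each gene's TPM held by its transcripts at 5% or more in the alignment-derived table, as stacked bars for replicates 1 and 2 in the alignment-derived (align.) and FASTQ-derived quantification, with all other transcripts in grey. The share of Irak2-201 is smaller in replicate 2 in both quantifications, and the share of Irak3-205 is larger in the alignment-derived bars.

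**Figure D5:**
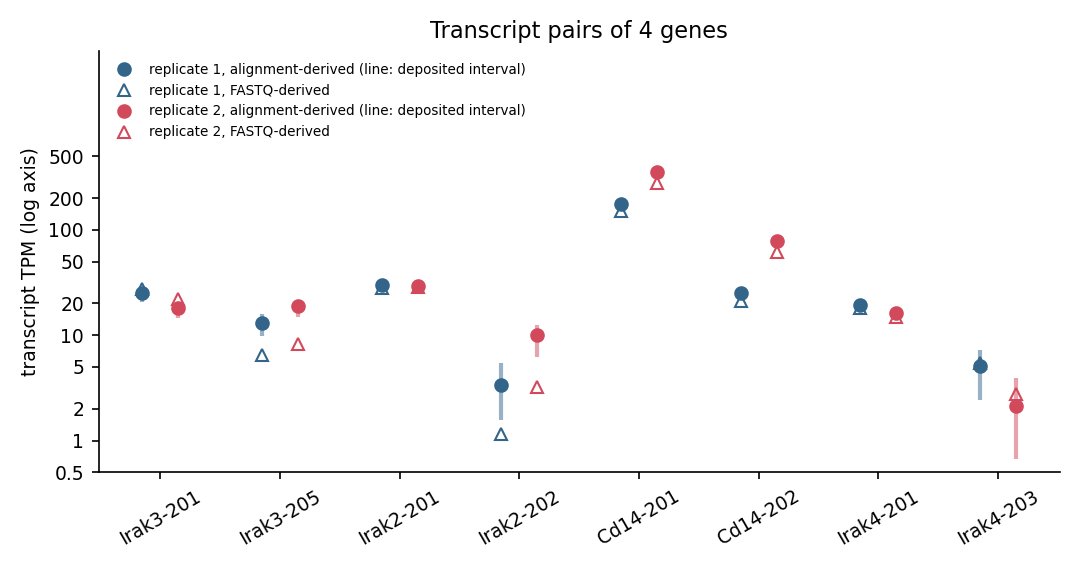
Level of the transcript pairs of Irak3, Irak2, Cd14 and Irak4 in TPM on a log axis, with circles and deposited intervals for the alignment-derived and triangles for the FASTQ-derived values of replicate 1 (blue) and replicate 2 (red). Irak2-201 is nearly level between the libraries, whereas Irak2-202 is higher in replicate 2 in both quantifications. The deposited intervals are not centred on the TPM. Those of Cd14-201, 167 to 175 in replicate 1 and 328 to 341 in replicate 2, lie below its TPM of 177 and 350.

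Such shifts were also common outside these genes. In 11.6% of the 7563 protein-coding genes with at least 2 transcripts and 5 TPM or more in each library and quantification, some transcript share differed by 10 percentage points or more between the replicates, in the same direction in both quantifications. Of the 9 members among those genes, 1 did so, which was Irak2, a share near that of all genes. For Irak3 the FASTQ-derived difference stayed under 10 points.

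The 4 Irak genes together held a similar total in both libraries, 138 TPM in replicate 1 and 135 TPM in replicate 2, with more of it as Irak2 and less as Irak1 and Irak4 in replicate 2. Irak2 was at 1.66 and 2.85 times the level of Irak4, and Irak1 at 1.36 and 1.21 times. The FASTQ-derived totals were 126 and 118 TPM.

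Around these genes, 43 other genes of the pathway were listed, from receptors through ubiquitin enzymes and IkB kinases to NF-kB and interferon regulatory factors. Of these, 38 were detected and 40 had 20 counts or more in each library. The highest by mean TPM were Pik3ap1, an adaptor that links Toll-like receptors to phosphoinositide 3-kinase, at 749 and 693 TPM in replicates 1 and 2, Cd180, a relative of Tlr4, at 666 and 614 TPM, and Ly86, the partner of Cd180 and a relative of Ly96, at 391 and 422 TPM. Ly86 was therefore above Ly96 in both libraries. The lowest was the interleukin-18 receptor chain Il18r1, with 0 and 3 counts. Among the 40, 2 were at least 2-fold higher in replicate 2, as was Cd14, under a rule passed by 1.94% of all genes tested. Nfkbia, the NF-kB inhibitor IkB-alpha, had 237 and 566 TPM, above Ly86 in replicate 2, and a log2 ratio of 1.29, and Tnfaip3 (A20), a deubiquitinase that limits signalling downstream of the Irak kinases, had 71.6 and 170 TPM and a ratio of 1.38. Lbp, the serum protein that hands lipopolysaccharide to Cd14, was the 1 gene at least 2-fold lower, a rule passed by 0.521% of all genes tested. It had 2.39 TPM from 151 counts in replicate 1 and 0.860 TPM from 39 counts in replicate 2, under the detection level of 1 TPM. Its ratio was -1.49, with an interval for counting error of -2.05 to -0.98 that reaches just inside 2-fold. The median ratio of the 40 genes was -0.02, the same as over all genes tested, and 17 were above 0 and 23 below.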

How the data were processed

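The authors deposited 3 tables per library, quantified on mm10 with GENCODE M21 per the deposited notes; no aligner, quantification tool or use of strand is named in the sources used. Per the file headers, 2 tables made from alignments, for genes and for transcripts, give expected counts, TPM, a signal column for each bound of the TPM interval, and isoform percent. The gene table also gives a posterior mean TPM. The third, of transcripts, was made from 4 FASTQ files per the deposited notes and gives estimated counts and TPM. Transcript shares were computed from TPM. Expected counts were rounded, scaled with TMM (edgeR 4.0.16, R 4.3.3) and 0.5 was added before the log2 ratio. Intervals of ratios are exact binomial (Clopper-Pearson) at 95% and cover counting error only. Deposited TPM intervals are printed as given. They are not centred on the TPM, and for Cd14 they lie below it in both libraries, at 190 to 200 for 202 TPM and 401 to 417 for 428 TPM. With 1 library on each side no test was made, and a 2-fold rule with at least 20 counts in each library was used. The rule was tried on simulated counts with changes well past 2-fold and a fixed spread. That trial does not cover ratios near 2-fold or the spread of these libraries. Transcript structures came from GENCODE M21 and promoter windows from RefSeq, where 7 of the 10 genes have one. Python 3.11.15 was used. The rule for members refers to symbols alone, but members, lists and rules were chosen with earlier results of these data known. All members were named, and of the other pathway genes the 3 highest, the lowest and those past 2-fold. Alternatives for counts were DESeq2 1.42.0 size factors, total counts, 5 counts added and other count minimums. Further ones were the FASTQ-derived table, posterior mean TPM, other detection levels, shares of counts in place of TPM, and each library alone.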

Additional observations from a re-analysis of the deposited data

How the results depend on the processing

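The log2 ratios of the 10 genes kept their direction, or stayed within counting error of 0, with DESeq2 size factors, with total counts, with 5 counts added and with FASTQ-derived counts, and Cd14 stayed the only member past 2-fold under each of these and under other count minimums. The number of pathway genes at least 2-fold higher in replicate 2 was 2 and became 4 with no count minimum, and the number at least 2-fold lower was 1 and became 0 with at least 100 counts. The shares of all genes at these other minimums are not given, so the counts describe only how the rule behaves. The summaries for Irak3-205 and Irak2-202 and the 10-point rule for transcript shares were chosen after seeing the data. The mean share of Irak3-205 was 42.2% and came to 22.7% in the FASTQ-derived table, and that of Irak2-202 was 13.2% and came to 4.97%. Shares of expected counts in place of TPM moved 6 of 12 transcript shares beyond the spread of the replicates, since they are not scaled by length. Of the 9 members eligible, 1 had a transcript share that differed between replicates by 10 points in both quantifications, beside 11.6% of all eligible genes. At 5 points the number was 4, beside 32.1% of all eligible genes. With 10 points in the alignment-derived table alone it was 2, beside 20.1%. With 2 libraries of 1 group, leaving either out leaves the other's value. Detected members numbered 10 with at least 0.1 TPM required and 9 with at least 10 TPM. A share of all protein-coding genes is given at 1 TPM alone, so these numbers have none beside them. Posterior mean TPM moved 2 of the 10 genes beyond the spread of the replicates, Myd88 from a mean of 145 to 139 and Irak3 from 37.9 to 36.6. Mean TPM was lower in the FASTQ-derived table for all 10 genes, and for 5 of them the gap passed the spread of the replicates. The cause was not tested.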
